A study of Mus musculus with 15 samples.

Results

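The D-type cyclins, the kinases they activate, the inhibitors of those kinases and Rb1 were followed across 5 groups of sorted mouse cells. The members were all probe sets whose array annotation named Ccnd1, Ccnd2, Ccnd3, Cdk4, Cdk6, Cdkn2a, Cdkn2b, Cdkn2c, Cdkn1b or Rb1. They came to 10 of the 18193 genes named on the array, with 26 of its 45037 non-control probe sets. Of these, 23 passed the filter for low values, which asked for a signal above the array's own median on at least 3 of the 15 arrays. A probe set each of Ccnd3, Cdk6 and Rb1 (1444323_at, 1460291_at and 1444400_at) did not pass and was not tested.

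Every group came from mice carrying the S100beta-verbB transgene, in which an S100beta promoter drives an activated relative of the Egf receptor, on a p53-/- or p53+/- background. Tumorspheres of lines 3447 and 4346, each taken from brain tumours of such mice, were injected into the brain of immunodeficient hosts (NOD.Cg-Prkdc<scid>Il2rg<tm1Wjl>/SzJ), and the cells were recovered from 3 hosts per line and cultured again. The cultures were sorted into side population (SP) cells, which lose a DNA-binding dye through membrane transporters, and non-SP cells. Line 3447 gave an SP group and a non-SP group, line 4346 gave an SP group, and untransformed neurospheres gave an SP group and a non-SP group, each with 3 arrays. The description is not uniform on whether the neurosphere cells came directly from 3 mice or from injected hosts, and it assigns no p53 genotype to a line or array. Each tumour line is a lone line, so a difference between a line and the neurospheres has no replication over tumours, and the p-values measure the spread among hosts and cultures. Neither the age of the mice nor the transgene's own transcript was analysed here.

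D-type cyclins bind CDK4 or CDK6, and the active kinase phosphorylates the retinoblastoma protein encoded by Rb1, which releases E2F factors and lets a cell pass from G1 into S phase. The INK4 proteins, encoded by Cdkn2a, Cdkn2b and Cdkn2c, bind CDK4 and CDK6 and keep cyclin D away, while the Cdkn1b product p27 inhibits cyclin E and CDK2 complexes and is held by cyclin D complexes. Cdkn2a also encodes ARF, which acts on p53 through Mdm2, and the Cdkn2a and Cdkn2b locus is deleted in many human gliomas. Ccnd1 and Ccnd2 are the main D cyclins of neural progenitors, and Ccnd2 is known for its part in adult neurogenesis.

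Cdkn2a and Cdkn2b lie side by side and are transcribed in the same direction. In the main fit only Cdkn2b was called in a comparison, and a difference between these genes was not tested. The 250 bases before their start sites are shown first, and whether they bear on the signals was not tested. The sequences are from RefSeq, build GRCm38.p6, minus strand, written 5′ to 3′, and 7 of the 10 genes had an entry. Capitals mark a GC box (GGGCGG or its complement CCGCCC, on either strand) or an E2F match (TTTCCCGC or TTTGGCGC, on either strand). The Cdkn2b window is chr4:89311033-89311282, the farther upstream Cdkn2a start, known for the ARF transcript, has chr4:89294620-89294869, and the nearer Cdkn2a start, known for the INK4A transcript, has chr4:89282193-89282442.
Cdkn2b: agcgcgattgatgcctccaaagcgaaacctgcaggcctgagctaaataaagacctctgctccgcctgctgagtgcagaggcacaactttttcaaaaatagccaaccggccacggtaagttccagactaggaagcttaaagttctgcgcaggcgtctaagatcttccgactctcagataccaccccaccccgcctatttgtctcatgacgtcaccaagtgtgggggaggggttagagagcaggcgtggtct
Cdkn2a, farther start: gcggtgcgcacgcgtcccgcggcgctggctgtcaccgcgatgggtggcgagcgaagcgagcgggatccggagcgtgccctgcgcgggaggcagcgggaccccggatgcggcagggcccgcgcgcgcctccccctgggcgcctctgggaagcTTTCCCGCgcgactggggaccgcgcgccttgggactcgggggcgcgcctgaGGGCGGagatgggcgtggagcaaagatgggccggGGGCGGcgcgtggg
Cdkn2a, nearer start: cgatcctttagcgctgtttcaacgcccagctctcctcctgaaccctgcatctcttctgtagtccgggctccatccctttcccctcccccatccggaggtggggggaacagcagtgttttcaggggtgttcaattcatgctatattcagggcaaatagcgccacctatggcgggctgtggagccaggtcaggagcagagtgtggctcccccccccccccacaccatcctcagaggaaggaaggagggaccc
The farther Cdkn2a window held 40 CG pairs, 2 GC boxes and 1 E2F match. The Cdkn2b window held 12 CG pairs and the nearer Cdkn2a window 7, with no match to either motif. Among 32851 windows of the same length the median was 6 CG pairs, 32.7% held a GC box and 1.30% an E2F match. A match is a description of letters and not a measured binding site.

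The deposited values are MAS5 signals on a linear scale. Array medians ran from 40.0 to 89.3. The highest was on array 3 of the 3447 SP, against 68.1 or less elsewhere, and array 3 of the 4346 SP had a 3' to 5' signal ratio of 5.30 for actin, against 3.29 or less elsewhere. Egfr (1424932_at), the cellular relative of the transgene's oncogene, had mean signals of 5016 and 6297 in neurosphere SP and non-SP cells and of 10.4 to 25.2 in the tumour groups. Log2 differences below are between group means of the quantile-normalized signal plus 16, given ± SE, tested with limma across all 26256 probe sets that passed the filter, with Benjamini-Hochberg adjustment and a threshold of 0.05. The added 16 shrinks the differences of low signals.

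Ccnd2 was the member with the largest fall in line 3447, in both sorted populations. Its brightest probe set, 1434745_at, read 364, 312 and 102 in the 3447 SP and 0.624, 30.6 and 52.7 in the 3447 non-SP. In neurospheres it read 8326, 11968 and 10994 in SP cells and 9204, 13314 and 13266 in non-SP cells. Every 3447 array lay below every neurosphere array, and only 1 of 3 arrays of the 3447 non-SP lay above its own array's median. The mean signal was 259 ± 139 (SD, n = 3) in the 3447 SP against 10429 ± 1886 in the neurosphere SP, a ratio of 40.2, and the log2 difference was -5.59 ± 0.67 (limma, adjusted p = 2.25e-05). In non-SP cells the difference was -8.31 ± 0.67 (adjusted p = 2.65e-07).

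All 7 Ccnd2 probe sets fell in line 3447. Their log2 differences ran from -5.81 to -4.41 in SP cells and from -8.31 to -5.27 in non-SP cells, and each passed under every alternative setting run and with each array left out, where 15.2% of all probe sets tested were called in each comparison. The probe sets share 1 gene and are not independent measures, and 1448229_s_at and 1455956_x_at carry suffixes that mark probes which can match other transcripts.

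In line 4346 the Ccnd2 signal varied among the hosts. Probe set 1434745_at read 1155, 9135 and 6678, and array 1 was the lowest of the 3 on all 7 probe sets. The group overlapped the neurosphere SP, and the log2 difference, -1.30 ± 0.67, did not pass (adjusted p = 0.189, 95% interval -2.72 to 0.12). Without array 1 of the 4346 SP it was -0.39 (adjusted p = 0.693). Of the 7 probe sets, 1430127_a_at passed, at -2.07 ± 0.56 (adjusted p = 0.0155), and its call was lost without array 1 of the 4346 SP (-1.20, adjusted p = 0.0605) or array 2 of the neurosphere SP (-1.89, adjusted p = 0.058).

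Set directly against each other, the SP cells of the lines gave a call for Ccnd2, while Cdkn2b, described below, had an adjusted p just above the threshold. Groups did not overlap for 8 member probe sets lower in 3447, those of Ccnd2 and Cdkn2b. They also did not overlap for 3 that were higher, Cdk4 1422441_x_at and 1422439_a_at and Rb1 1417850_at. The share of all probe sets without overlap between the lines is not given here. The 3447 arrays lay below the 4346 arrays on each of the 7 Ccnd2 probe sets, and the log2 difference of 1434745_at was -4.29 ± 0.67 (adjusted p = 0.0035). The others ran from -4.41 to -3.00. These were the 7 member probe sets called of 23 tested, all lower in 3447, where 0.769% of all probe sets tested were called lower and 1.20% in either direction. Without array 3 of the 4346 SP 4 of the 7 passed, and without array 3 of both SP groups, left out together after the data had been seen, none passed (1434745_at -3.26, adjusted p = 0.092, with adjusted p from 0.0525 to 0.282 over the 7).

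**Figure D1:**
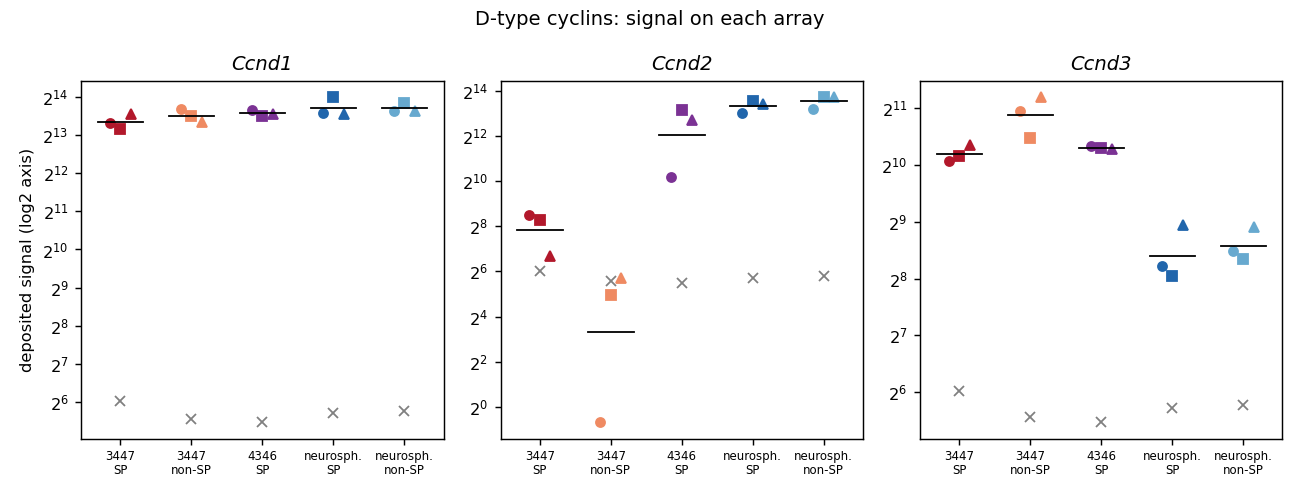
Deposited signal on a log2 axis for the brightest probe set of each D cyclin, by group; circles, squares and triangles are arrays 1, 2 and 3, lines are the means of the log2 signals, and grey crosses are the mean of the array medians. Ccnd1 stays between 9221 and 16273 on all arrays, Ccnd2 reads 364 or less on the 6 arrays of line 3447, and Ccnd3 reads 1082 or more on the tumour arrays against 491 or less on the neurosphere arrays.

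Ccnd1, the other main D cyclin of these cells, kept a high signal in all groups. Probe set 1448698_at read 10175, 9221 and 12062 in the 3447 SP, 13086, 11501 and 10424 in the 3447 non-SP, and 13001, 11645 and 12008 in the 4346 SP. In neurospheres it read 12230, 16273 and 12111 in SP cells and 12679, 14638 and 12778 in non-SP cells. The 3447 SP lay just below the neurosphere SP without overlap, and the other tumour groups overlapped their neurosphere groups. None of the tumour comparisons passed for this probe set, with log2 differences of -0.29 ± 0.12 (adjusted p = 0.116), -0.17 ± 0.12 (0.344) and -0.30 ± 0.12 (0.108) for the 3447 SP, 4346 SP and 3447 non-SP. With arrays scaled to their medians the latter pair became 0.12 and 0.01. The 3447 SP passed without its array 3 (-0.41, adjusted p = 0.0418). When the Ccnd1 probe sets were averaged, the SP and non-SP of line 3447 passed (-0.71, 0.0139, and -0.58, 0.0401).

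The dimmer Ccnd1 probe sets gave larger differences. Probe set 1417419_at read 261, 133 and 308 in the 3447 SP against 417, 477 and 537 in the neurosphere SP, and fell by 1.13 ± 0.31 on the log2 scale (adjusted p = 0.0187). The call was lost without array 2 of the 3447 SP (adjusted p = 0.0937) or array 3 of the neurosphere SP (0.0635). Probe set 1417420_at was lower in the 3447 SP (-0.71 ± 0.23, adjusted p = 0.0486) and non-SP (-0.84 ± 0.23, adjusted p = 0.0206). The SP call was lost in 12 of the 15 fits that left out 1 array, with adjusted p up to 0.162. The non-SP call was lost without array 3 of the 3447 non-SP (-0.53, adjusted p = 0.12) or array 2 of the neurosphere non-SP (-0.74, 0.0823). With arrays scaled to their medians both calls were lost (-0.98, adjusted p = 0.0762, and -0.62, 0.315). The probe sets of Ccnd1 thus did not give the same call.

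The difference between the Ccnd1 and Ccnd2 log2 values of an array gives the balance between these cyclins as a relative measure. Since probe sets differ in how brightly they bind, only its change between groups carries information. It was 0.62, 0.43 and 0.16 in the neurosphere SP and 0.51, 0.14 and -0.04 in the neurosphere non-SP. It was 4.92, 4.86 and 7.31 in the 3447 SP and 9.49, 8.10 and 7.03 in the 3447 non-SP. All 6 arrays of line 3447 lay above all other arrays on this measure.

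The balance in the 4346 SP was 3.45, 0.33 and 0.81. Array 1 stood with neither the neurospheres nor line 3447, and arrays 2 and 3 lay close to the neurosphere range. The group means moved by 5.29 log2 units from neurosphere SP to 3447 SP, by 1.13 to 4346 SP and, among non-SP cells, by 8.01 to 3447. Over all 21 pairs of a Ccnd1 with a Ccnd2 probe set these shifts ran from 3.27 to 5.51, from 0.74 to 1.90 and from 4.43 to 8.01. As a score over members the balance was given no test, and without array 1 of the 4346 SP its shift in that line was 0.17.

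**Figure D2:**
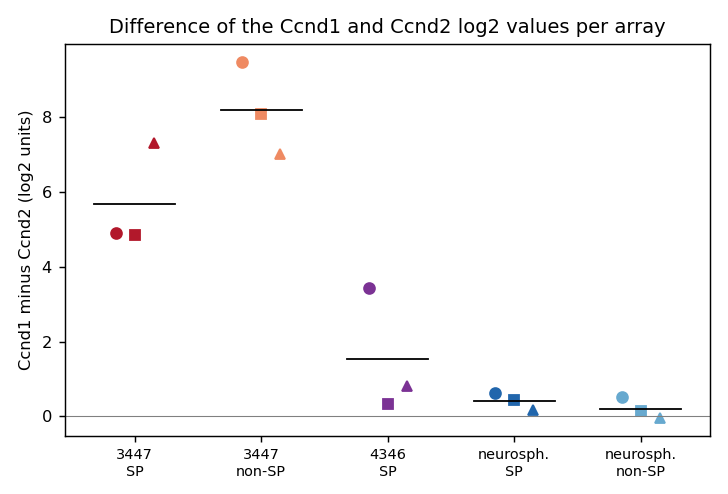
Ccnd1 minus Ccnd2 in log2 units (brightest probe sets, quantile-normalized signal plus 16) on each array, by group; circles, squares and triangles are arrays 1, 2 and 3 and lines are group means. Line 3447 lies between 4.86 and 9.49, the neurospheres lie between -0.04 and 0.62, and array 1 of the 4346 SP stands at 3.45.

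Ccnd3, the D cyclin best known from lymphoid cells, rose in all tumour groups. Probe set 1415907_at read 1082, 1149 and 1309 in the 3447 SP, 1996, 1427 and 2347 in the 3447 non-SP, and 1296, 1267 and 1241 in the 4346 SP. In neurospheres it read 298, 263 and 491 in SP cells and 357, 326 and 479 in non-SP cells, so that no tumour array overlapped a neurosphere array. The log2 differences were 1.71 ± 0.27 for the 3447 SP (adjusted p = 0.000262), 1.81 ± 0.27 for the 4346 SP (adjusted p = 0.000144) and 2.27 ± 0.27 for the 3447 non-SP (adjusted p = 1.48e-05). These calls held under every alternative. The dimmer 1438805_at pointed the same way with differences of 1.00, 1.01 and 0.61, none of which passed. The comparisons of both lines with the neurosphere SP share the same 3 control arrays.

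Of the kinases, Cdk4 showed small differences. Its brightest probe set, 1422441_x_at, read 5005, 5288 and 5219 in the 3447 SP, 5623, 5338 and 7073 in the 3447 non-SP and 4829, 4576 and 4237 in the 4346 SP. In neurospheres it read 5385, 6929 and 5882 in SP cells and 5414, 8307 and 6639 in non-SP cells. The groups from line 3447 lay -0.13 ± 0.15 (95% interval -0.46 to 0.19) and -0.18 ± 0.15 (-0.50 to 0.14) from their neurosphere groups. In the 4346 SP 1 of 3 Cdk4 probe sets passed, 1422439_a_at at -0.61 ± 0.17 (adjusted p = 0.0194). That call did not hold without array 2 or 3 of either group compared (adjusted p from 0.0512 to 0.0843) and with arrays scaled to their medians (0.552). The other probe sets lay the same way, 1422441_x_at at -0.39 (adjusted p = 0.0854) and 1422440_at at -0.51 (0.113). When the Cdk4 probe sets were averaged, the 4346 SP passed (-0.50, adjusted p = 0.0374).

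Cdk6, the partner kinase with the same cyclins, had a low signal in line 3447. Probe set 1435338_at read 40.1, 9.66 and 73.4 in the 3447 SP and 25.1, 31.7 and 3.25 in the 3447 non-SP, below the array's median on all 6 arrays. It read 69.7, 460 and 233 in the neurosphere SP, 60.3, 705 and 307 in the neurosphere non-SP, and 46.0, 76.0 and 226 in the 4346 SP. Array 1 of each neurosphere group was the lowest, and the SP groups of 3447 and neurospheres overlapped by that array. Cdk6 was lower in the 3447 SP by this probe set (-2.34 ± 0.71, adjusted p = 0.0336) and by 1455287_at (-1.77 ± 0.51, adjusted p = 0.025), and both calls were lost in several fits with 1 array left out. Without normalization both were lost too (adjusted p = 0.078 and 0.0684). The call of 1435338_at was also lost with a constant of 64 (0.052), no filter (0.0547) and no trend (0.0582). In the 3447 non-SP 1435338_at passed at -2.84 ± 0.71 (adjusted p = 0.0109), lost without array 3 of that group (0.0595) or array 2 of the neurosphere non-SP (0.065). Probe set 1455287_at did not pass there (-1.52, adjusted p = 0.0525), and its groups overlapped. The 4346 SP did not pass for either probe set (-0.86, adjusted p = 0.429, and -1.23, adjusted p = 0.099).

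Among the INK4 genes, Cdkn2a had signal in every group and did not pass in any comparison. Its only probe set, 1450140_a_at, read 1001, 658 and 608 in the 3447 SP, 481, 758 and 557 in the 3447 non-SP, and 718, 1020 and 2777 in the 4346 SP. In neurospheres it read 535, 744 and 864 in SP cells and 488, 597 and 905 in non-SP cells. All 15 arrays lay above their own medians, and each tumour group overlapped its neurosphere group. The log2 difference of the 3447 SP from the neurosphere SP was 0.01 ± 0.39 (adjusted p = 0.992, 95% interval -0.83 to 0.84), and that of the 3447 non-SP was -0.13 ± 0.39 (adjusted p = 0.873, -0.97 to 0.70). The deposited tables do not say how this probe set divides between the INK4A and ARF transcripts, which share exons.

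In the 4346 SP Cdkn2a lay 0.80 ± 0.39 above the neurosphere SP and did not pass (adjusted p = 0.169). Array 3, which carried the raised actin ratio, was the highest at 2777. Without it the difference was 0.25 (adjusted p = 0.669), and without array 1 it was 1.20 and passed (adjusted p = 0.0474). The part of RNA quality in this spread was not tested.

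Cdkn2b, the neighbour of Cdkn2a, was low in line 3447. Probe set 1449152_at, the only 1 for this gene, read 72.7, 34.8 and 12 in the 3447 SP and 25.3, 42.5 and 38.3 in the 3447 non-SP, with 1 of these 6 arrays above its own median. It read 454, 520 and 95.6 in the neurosphere SP, 411, 331 and 87.1 in the neurosphere non-SP, and 99.3, 345 and 903 in the 4346 SP. The 3447 groups did not overlap the neurospheres or the 4346 SP, and array 3 of each neurosphere group was its lowest. Cdkn2b fell by 2.77 ± 0.72 on the log2 scale in the 3447 SP (adjusted p = 0.0147), a call lost without array 3 of the 3447 SP (adjusted p = 0.0812) or array 1 (0.067) or 2 (0.0662) of the neurosphere SP.

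In the 3447 non-SP the Cdkn2b difference, -2.16 ± 0.72, just missed the threshold (adjusted p = 0.0532) and passed without array 3 of the neurosphere non-SP (-2.73, adjusted p = 0.0228) and in 9 other alternative fits. Against the 4346 SP, the 3447 SP lay at -2.95 ± 0.72 and did not pass either (adjusted p = 0.0592). It passed with arrays scaled to their medians (-3.08, adjusted p = 0.00323), without array 1 of the 4346 SP (-3.68, 0.0232) and in 2 other fits that left out 1 array, and stood at -2.25 (adjusted p = 0.281) without array 3. The 4346 SP did not differ detectably from the neurosphere SP (0.18 ± 0.72, adjusted p = 0.892), with a wide 95% interval of -1.34 to 1.71, and without array 3 of the 4346 SP or array 3 of the neurosphere SP the value turned to -0.52 and -0.56.

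The genes around the pair were read as well, by their RNA signal. The 6 nearest genes with a probe set on each side gave 12 neighbours, of which 7 were tested. Mtap, a methionine salvage enzyme next to Cdkn2a, had a mean signal of 5807 ± 96.4 in the 3447 SP, 6820 ± 522 in the 3447 non-SP and 6503 ± 823 in the 4346 SP, against 4763 ± 341 and 5078 ± 403 in neurosphere SP and non-SP cells. Its differences of 0.37, 0.45 and 0.39 for the 3447 SP, 4346 SP and 3447 non-SP passed (adjusted p = 0.0407, 0.0128 and 0.031), but all 3 calls were lost with the mean of its probe sets (0.15, 0.21 and 0.29, adjusted p = 0.533, 0.332 and 0.193) and with arrays scaled to their medians (0.04, 0.70 and 0.63, adjusted p = 0.959, 0.146 and 0.232). In fits that left out 1 of the 15 arrays they were lost 9, 1 and 5 times. Dmrta1, a transcription factor gene next to Cdkn2b on its other side, rose by 2.16, 3.01 and 2.10 (adjusted p = 0.000592, 2.26e-05 and 0.00075). Mtap and Dmrta1 lay above the array median on every array of the 3447 groups, as they did in the 4346 SP and the neurospheres. The copy number of the locus was not tested.

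Farther out, Elavl2, a neuronal RNA-binding protein gene, fell, with differences of -2.57, -3.54 and -3.12, and Tusc1 fell, with -2.59, -2.34 and -2.31 in the same order (adjusted p of 0.00164 or less). Of the 7 tested neighbours 2 were higher and 2 lower in the 3447 SP, where 10.2% of all genes were called higher and 8.31% lower. The counts were 2 higher and 3 lower in the 4346 SP (13.6% and 9.85% of all genes) and in the 3447 non-SP (10.7% and 7.78%). None of the 7 differed between the SP cells of the lines, where 0.420% of genes were called higher and 1.08% lower.

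**Figure D3:**
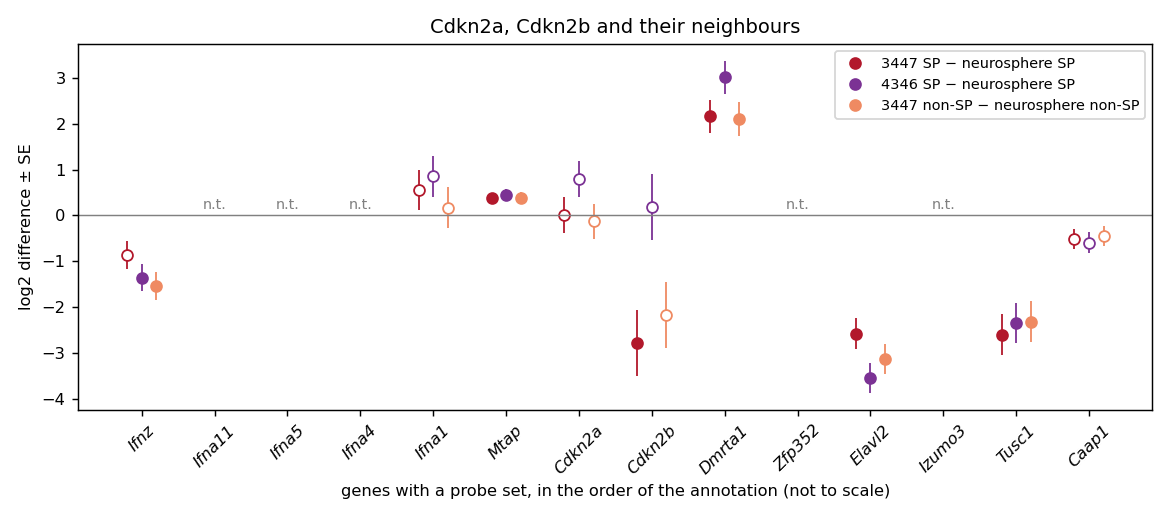
Log2 difference ± SE from the matching neurosphere group for Cdkn2a, Cdkn2b and the tested genes around them, in annotation order and not to scale; filled points passed at an adjusted p of 0.05, open points did not, and n.t. marks genes that were not tested. Mtap and Dmrta1, the immediate neighbours, lie above 0 in every comparison while Cdkn2b lies at -2.77 and -2.16 in line 3447 and at 0.18 in the 4346 SP.

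Cdkn2c, the INK4 gene for p18, had lower means in all tumour groups, passed in the 4346 SP and lay at the threshold in the 3447 SP. Probe set 1416868_at read 229, 223 and 175 in the 4346 SP, 226, 162 and 402 in the 3447 SP and 308, 220 and 152 in the 3447 non-SP, against 520, 497 and 400 in the neurosphere SP and 363, 368 and 449 in the neurosphere non-SP. The 4346 SP and the 3447 non-SP did not overlap their controls, and the 3447 SP overlapped by its array 3. The differences were -1.11 ± 0.32 for the 4346 SP (adjusted p = 0.0225), -0.97 ± 0.32 for the 3447 SP (0.0519) and -0.79 ± 0.32 for the 3447 non-SP (0.118). The 4346 call was lost without array 3 of that group (0.072) or array 1 (0.0722) or 2 (0.0628) of the neurosphere SP, and with arrays scaled to their medians (0.125). The 3447 SP passed without its array 3 (-1.33, adjusted p = 0.0117), with array weights (-1.10, 0.0281) and in 7 other alternative fits.

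Cdkn1b, which encodes p27, had a high signal throughout. Probe set 1434045_at read 6296, 7028 and 6237 in the 3447 SP, 6682, 5393 and 4622 in the 3447 non-SP and 6933, 7338 and 4586 in the 4346 SP. It read 8038, 7495 and 9700 in the neurosphere SP and 7253, 7769 and 8176 in the neurosphere non-SP. Each tumour group lay below its neurosphere group on this probe set, by 0.50 log2 units or less. The 3447 non-SP passed at -0.50 ± 0.16 (adjusted p = 0.0468) and lost the call in 9 of 15 fits with 1 array left out, with adjusted p up to 0.204. It also lost the call with arrays scaled to their medians (-0.28, adjusted p = 0.7) and without normalization (-0.49, 0.0641). When the Cdkn1b probe sets were averaged, the 4346 SP passed (-0.58, adjusted p = 0.0276). The second probe set, 1419497_at, passed in the 4346 SP at -0.73 ± 0.23 (adjusted p = 0.0333), lost in 5 such fits (up to 0.151) and with arrays scaled to their medians (0.459).

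Rb1, the substrate of the pathway, did not pass in any comparison. Probe set 1417850_at read 1527, 1487 and 1503 in the 3447 SP, 1919, 1477 and 1423 in the 3447 non-SP, 1393, 1261 and 1373 in the neurosphere SP and 1401, 1065 and 1376 in the neurosphere non-SP. Both 3447 groups lay above their neurosphere groups without overlap, as 17.8% of all probe sets did in the SP comparison. The 4346 SP read 1468, 1360 and 480, the last on the array with the raised actin ratio, and overlapped the neurosphere SP. The differences from neurospheres were 0.15 ± 0.31 (adjusted p = 0.803) for the 3447 SP, -0.46 ± 0.31 (0.322) for the 4346 SP and 0.32 ± 0.31 (0.553) for the 3447 non-SP. With arrays scaled to their medians the 3447 SP value was -0.08.

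**Figure D4:**
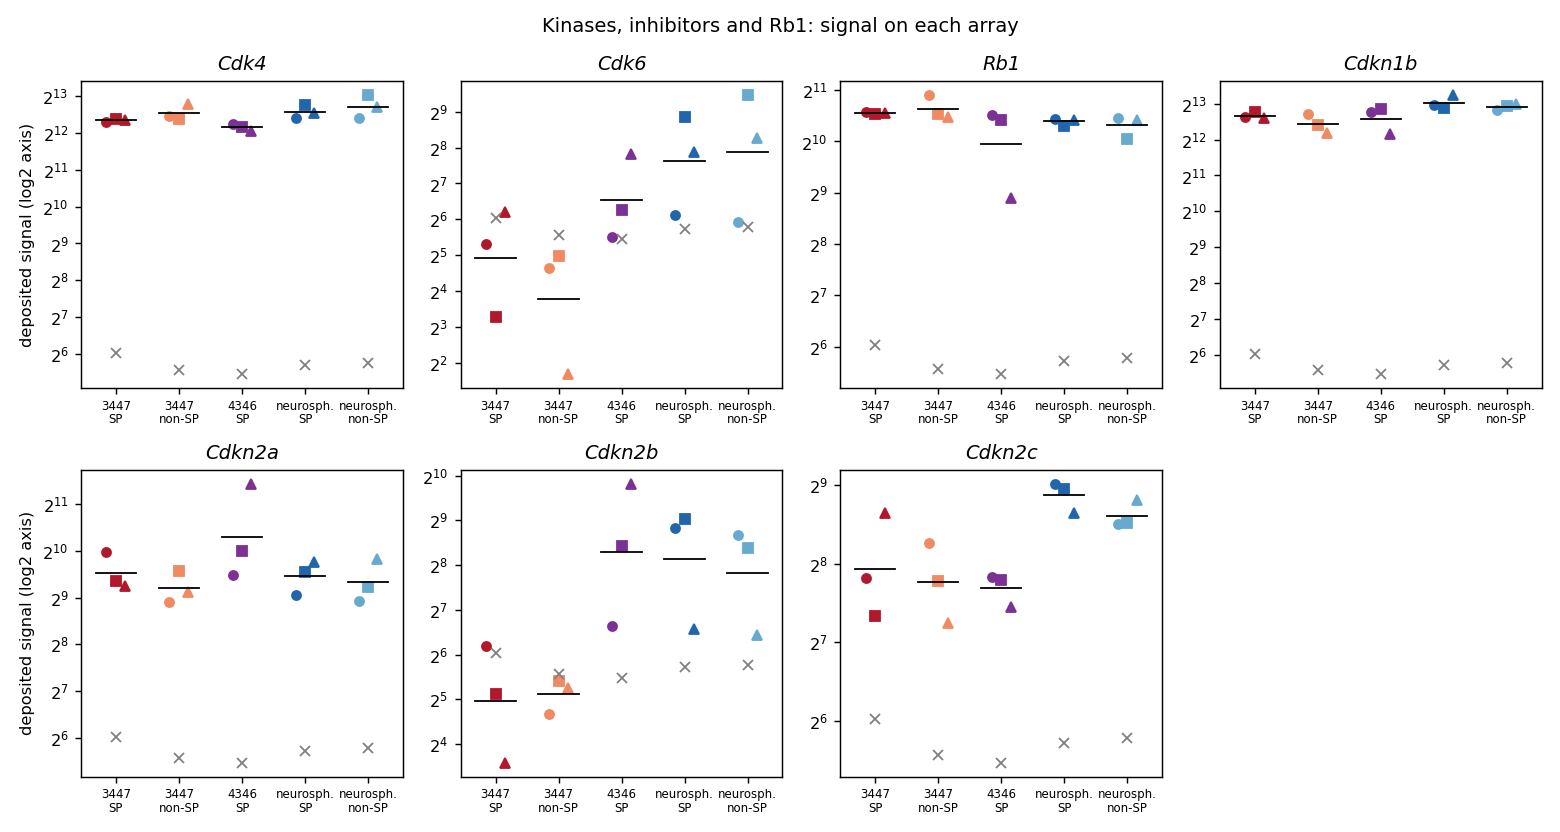
Deposited signal on a log2 axis for the brightest probe set of each kinase, inhibitor and Rb1, by group; circles, squares and triangles are arrays 1, 2 and 3, lines are means of the log2 signals and grey crosses the mean of the array medians. Cdkn2a stays between 481 and 2777 on all arrays, Cdkn2b reads 72.7 or less in line 3447, and Rb1 has 1 low value, 480, on array 3 of the 4346 SP.

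Counted over all members, 13 of 23 tested probe sets were called in the 3447 SP against the neurosphere SP, 1 higher (Ccnd3) and 12 lower, in 5 genes. In that comparison 15.2% of all tested probe sets were called, 8.01% higher and 7.17% lower. Of the 12 lower calls 7 belonged to Ccnd2, 2 each to Ccnd1 and Cdk6 and 1 to Cdkn2b. In the 3447 non-SP 11 were called, 1 higher and 10 lower, where 15.2% of all were called, 8.16% higher and 7.0% lower (1838 of 26256). For the 4346 SP 5 were called, 1 higher and 4 lower, a share of 21.7% that stood near the 19.8% among all probe sets (10.2% higher and 9.64% lower).

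The median log2 difference over the 23 probe sets was -0.97 in the 3447 SP, -0.79 in the 3447 non-SP and -0.61 in the 4346 SP, against -0.04, -0.02 and -0.07 over all probe sets, and the Ccnd2 probe sets weigh heavily in it. Read by the brightest probe set of each of the 10 genes, 1 was higher and 3 lower in the 3447 SP, where 10.2% of all genes were called higher and 8.31% lower. In the 3447 non-SP 1 was higher and 3 lower (10.7% and 7.78% of all genes). The 4346 SP had 1 higher and 1 lower, near the 13.6% and 9.85% among all genes. The groups did not overlap for 17 lower and 2 higher member probe sets in the 3447 SP, where 14.2% and 17.8% of all probe sets did not overlap.

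**Figure D5:**
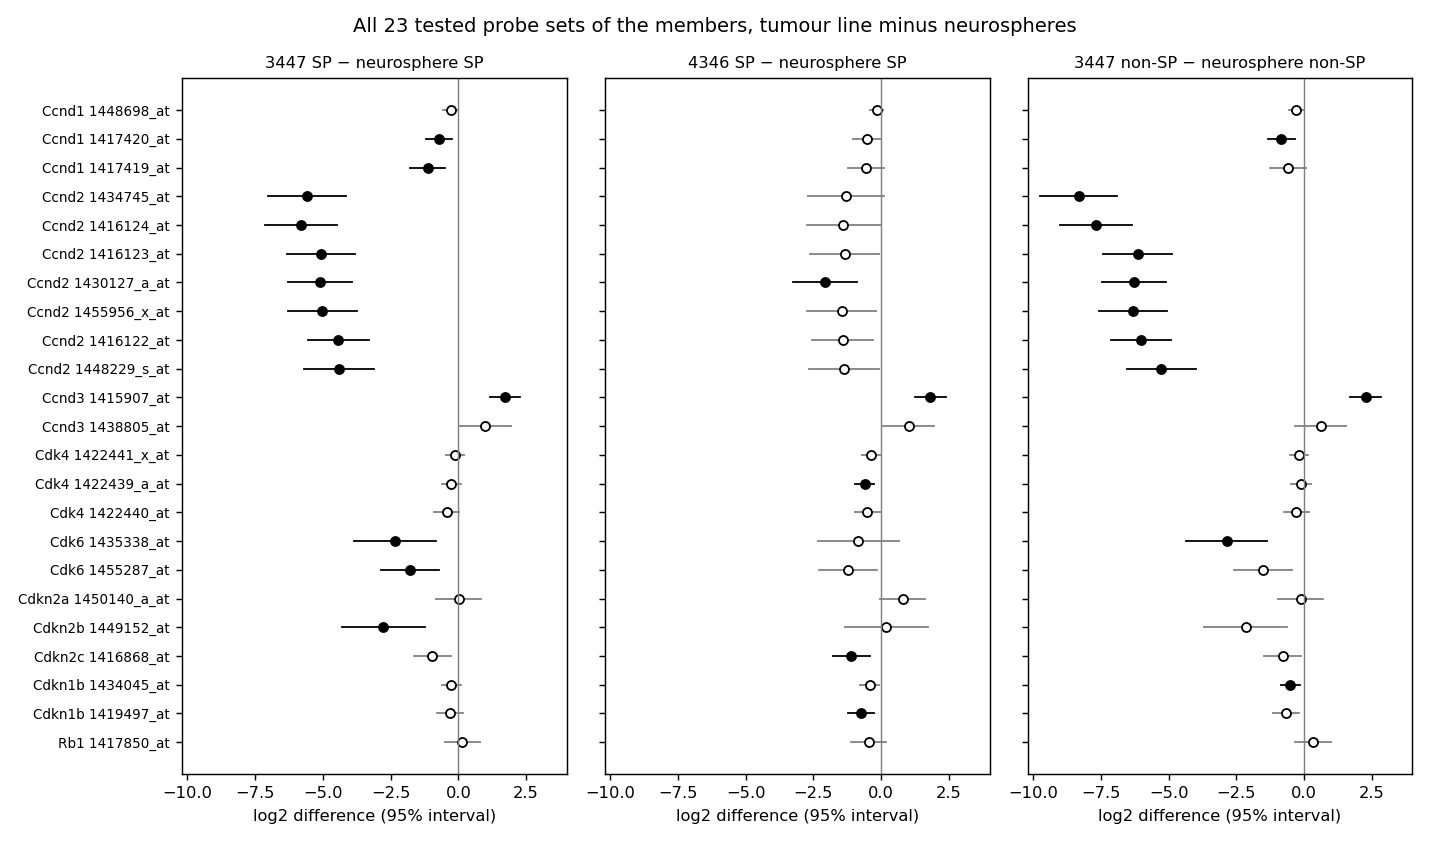
Log2 difference with its 95% interval for each of the 23 tested member probe sets in the 3 comparisons of a tumour line with neurospheres; filled points passed at an adjusted p of 0.05. The 7 Ccnd2 probe sets lie between -8.31 and -4.41 in line 3447 and between -2.07 and -1.30 in the 4346 SP, and Ccnd3 1415907_at lies at 1.71, 1.81 and 2.27.

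Within line 3447, SP and non-SP cells were compared to ask whether dye exclusion goes with a change in these genes. None of the 23 probe sets passed with limma, where 0.00381% of all were called, and 4 had an unadjusted p under 0.05, where 6.92% of all did. The 4 were Ccnd2 1434745_at and 1416124_at, Ccnd3 1415907_at and Cdkn1b 1419497_at. Ccnd2 was 2.47 ± 0.67 higher in SP cells by 1434745_at (adjusted p = 0.383) without overlap, but the non-SP values lie at the low end of the scale. Ccnd3 was 0.66 ± 0.27 lower in SP cells, again without overlap (adjusted p = 0.675).

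Groups did not overlap for 5 member probe sets higher in the 3447 SP, all Ccnd2, and for 4 that were lower, Ccnd3 1415907_at and the 3 Cdk4 probe sets, where 9.13% and 7.20% of all probe sets did so. Overlap was read on the deposited signals, before normalization. Of these Ccnd2 probe sets, 1430127_a_at and 1455956_x_at lay above the array median on no array of either 3447 group. Probe set 1416122_at did so on 1 of 3 arrays of the 3447 SP and on none of the non-SP. In neurospheres 0 of 23 passed with limma and 0 had an unadjusted p under 0.05, where 0.0114% and 4.32% of all did. The groups overlapped for every member there, and 8.84% of all probe sets had separate groups. The Ccnd2 difference there was -0.26 ± 0.67. The test of whether the SP difference itself differed between line 3447 and neurospheres called 0 members and 0% of all probe sets. Of the members, 2 had an unadjusted p under 0.05, against 2.49% of all, and Ccnd2 1434745_at stood at 2.72 ± 0.95 (adjusted p = 1).

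The rest of the pathway was read by gene, each by its brightest probe set, with 44 genes tested in 6 lists. In the 3447 SP 1 was called higher and 3 lower, where 10.2% of all genes were higher and 8.31% lower. The 4346 SP had 3 higher and 4 lower (13.6% and 9.85% of all genes), and in the 3447 non-SP 3 were higher and 2 lower (10.7% and 7.78%). These shares are near or under the background.

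Of the 3 other CDK inhibitors, Cdkn1a, which encodes p21, a p53 target that inhibits CDK2 complexes, rose in every tumour comparison. Its mean signal was 3354 ± 1189 in the 3447 SP, 1970 ± 500 in the 3447 non-SP and 4713 ± 1427 in the 4346 SP, against 725 ± 360 and 345 ± 30.5 in neurosphere SP and non-SP cells. The log2 differences were 2.27 ± 0.36 (adjusted p = 0.00036), 2.44 ± 0.36 (0.00018) and 2.73 ± 0.36 (5.89e-05). Cdkn1c, the gene for p57, passed in the 4346 SP at 1.72 ± 0.52 (adjusted p = 0.028), a call lost in 4 fits with 1 array left out, and stood at 1.58 (0.0505) and 1.47 (0.0684) in the 3447 SP and non-SP. Cdkn2d, the gene for p19 of the INK4 family, did not pass in any comparison.

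Of 12 pocket protein and E2F genes, E2f5 and E2f6, which code for E2F factors known as repressors, fell in each tumour comparison and none rose. E2f5 lay at -1.51, -1.23 and -1.43 and E2f6 at -1.35, -1.31 and -1.19 for the 3447 SP, 4346 SP and 3447 non-SP (adjusted p of 0.0139 or less). With arrays scaled to their medians both lost the 4346 call (adjusted p = 0.102 and 0.0772), and E2f6 also lost the non-SP call (0.118). That E2f6 call was lost too without array 3 of the 3447 non-SP (0.0778) or array 1 (0.0577) or 3 (0.0638) of the neurosphere non-SP. The median over the 12 was 0.08, 0.28 and 0.33, against -0.03, 0.02 and 0.04 over all genes.

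None of the 7 genes of the cyclin E and A side, which act after cyclin D in G1 and S phase, passed in any comparison with limma. Ccne1 came nearest in the 3447 SP (-1.06 ± 0.36, adjusted p = 0.0589). Of 7 genes for kinase activation and cyclin D turnover, Fbxo31, an F-box protein that directs cyclin D1 to degradation, was higher in the 4346 SP (1.27 ± 0.36, adjusted p = 0.0203) and the 3447 non-SP (1.37 ± 0.36, 0.0161), and each call was lost in 3 fits with 1 array left out. Of 4 upstream regulators, Bmi1, a repressor of the Cdkn2a locus, was lower in the 4346 SP (-0.73 ± 0.17, adjusted p = 0.00552, and -0.48, adjusted p = 0.429, with arrays scaled to their medians).

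E2F target genes give a readout downstream of Rb1, and 11 of the 12 listed were tested. Rrm2, a subunit of ribonucleotide reductase, was lower in the 3447 SP (-0.62 ± 0.13, adjusted p = 0.00334) and the 4346 SP (-0.76 ± 0.13, 0.000559), the latter -0.48 (0.297) with arrays scaled to their medians. Mcm6, part of the replicative helicase, was higher in the 3447 non-SP (0.74 ± 0.21, 0.0219), a call lost in 3 fits with 1 array left out. Between SP and non-SP cells of line 3447 all 11 differences lay below 0, with a median of -0.59 against -0.01 over all genes, and none passed. The nearest was Mcm6 at -0.88 ± 0.21 (adjusted p = 0.293).

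Cell type markers moved along with the tumour and neurosphere groups. Of 6 oligodendrocyte progenitor markers, Pdgfra, Cspg4, Sox10 and Gpr17 were higher in each tumour comparison, and the summed signal ran from 10405 to 14716 in the 3447 SP, 16296 to 18464 in the 3447 non-SP and 17010 to 22640 in the 4346 SP, against 6978 to 12165 and 8841 to 11529 in neurosphere SP and non-SP. Olig2 was lower in both SP comparisons and Olig1 in that of line 3447. Of 6 astrocyte markers 4, 2 and 3 were lower in the 3447 SP, 4346 SP and 3447 non-SP, with summed signals of 3230 to 5288, 6981 to 10108 and 2065 to 3571 against 12572 to 29726 and 14750 to 16899 in the neurosphere groups. Gfap went the other way without a call, at 0.41, 0.28 and 0.06 log2 units. Over all genes 10.2%, 13.6% and 10.7% were called higher and 8.31%, 9.85% and 7.78% lower in these comparisons. Of 8 neural stem and progenitor markers 4, 5 and 2 were lower, Nes and Prom1 in each comparison, and Prom1 lay below the array median on all arrays of both tumour SP groups. The part of these differences in the Ccnd2 and Ccnd3 results was not tested, and in bulk sorted cells fewer cells of a type and less RNA per cell cannot be told apart.

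Signals of host or stromal cells were low for most types. Of 6 microglia and macrophage markers, 5 lay below the array median on all arrays of each group (Ptprc, Itgam, Csf1r, Aif1 and Cx3cr1), and no endothelial marker was tested. Pericyte and fibroblast markers were the exception, with a summed signal over 6 genes of 7664 to 8111 in the 4346 SP, 1133 to 3206 in the 3447 SP and 391 to 1436 in the 3447 non-SP, against 237 to 307 and 84.2 to 240 in neurospheres. Of these genes 5 were tested, and 4, 3 and 3 lay above 0 in the 3447 SP, 4346 SP and 3447 non-SP. Col1a1 was called higher in all tumour comparisons and Lum in those of the SP groups, and no other passed. Over all genes 10.2%, 13.6% and 10.7% were called higher. In the 3447 non-SP Rgs5, Acta2, Dcn and Lum lay below the array median on all arrays, so the sum rests on few genes. Of 5 neuron markers 4 were tested. Tubb3 was higher in each tumour comparison and Snap25 was lower in both of line 3447, where 8.31% (SP) and 7.78% (non-SP) of all genes were lower.

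The genes whose log2 pattern over the 15 arrays lay nearest to a member's, after centring each gene, were found by the root mean square difference. For Ccnd2 they were Robo1 (0.98 log2 units), an axon guidance receptor, Adgrl2 (1.14), an adhesion receptor, and Gja1 (1.17), the gap junction protein that also stands on the astrocyte list. These 3 read 667 or more on each array of the 4346 SP and 266 or less on each array of line 3447. They were picked for likeness to Ccnd2 on these same arrays, so this split follows from the choice. Their 4346 arrays did not share the low array 1 of Ccnd2, since Robo1 read 1173, 1884 and 916 and Adgrl2 read 3463, 2356 and 994. For Cdkn2a the nearest were Olfm1 (0.20), Dag1 (0.27) and Rab34 (0.28), each highest on array 3 of the 4346 SP, where Olfm1 read 2306 against 365 and 870. The choice by pattern favours this too. For Ccnd1 they were Elovl5, Tmx1 and Atp5a1, each at 0.11. The Ccnd1 probe set used here, 1448698_at, varied little itself (SD 0.20 log2 units over the arrays), unlike the dimmer Ccnd1 probe sets above.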

How the data were processed

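The deposited intensities are linear MAS5 signals, computed by the authors in Affymetrix Expression Console, per the submitters' processing notes (version not given in the sources here). RNA was amplified with NuGEN Ovation Pico, per the labels' protocols. The 15 arrays were quantile-normalized because their medians differed by 2.23 times, over the limit of 1.5, then log2(signal + 16) was taken. Probe sets above their array's median on at least 3 arrays were kept, 26256 of 45037 after 64 controls were left out. Gene symbols came from the platform annotation; 34945 probe sets had 1 symbol, 932 several and 9160 none. limma 3.58.1 (R 4.3.3) fitted 5 group means with 10 residual degrees of freedom and an intensity trend in the prior variance, two-sided, in 7 comparisons, and was tested on simulated data. The number of arrays limits the precision.

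Named genes were the members, each led by its brightest probe set on average; of each pathway list the genes called or with the smallest p; the 6 nearest genes with a probe set on each side of Cdkn2a and Cdkn2b; the 3 genes nearest in pattern to Ccnd1, Ccnd2 and Cdkn2a; and Egfr. p53 itself is not analysed here. Members and lists were chosen with earlier results of these data known. Equal replicate numbers went together in neurospheres (correlations of deviations 0.454 to 0.504) and not in line 3447 (-0.265 to -0.158). No 2 arrays of a group were duplicates (highest Pearson correlation 0.974). Alternatives covered the scaling, added constant, filter, probe set rule, arrays fitted, trend, weights, replicate block and arrays left out.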

Additional observations from a re-analysis of the deposited data

Results flagged for a closer look

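Ccnd2 stood out because the departure from neurosphere SP differed between the SP cells of the lines. The difference between the lines was -3.00 log2 units for probe set 1416122_at, -3.72 for 1416123_at, -4.41 for 1416124_at, -3.04 for 1430127_a_at, -4.29 for 1434745_at, -3.04 for 1448229_s_at and -3.56 for 1455956_x_at. All 7 passed with limma at adjusted p from 0.00165 to 0.0196, and none passed without array 3 of both SP groups. The 7 probe sets read 1 gene.

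For Ccnd2 1434745_at and for Rb1 1417850_at, all SP arrays of line 3447 lay on one side of the non-SP mean and all neurosphere SP arrays on the other. The differences between these effects were 2.72 and -0.18. This separation was not itself tested, and the interaction in limma had an adjusted p of 1 for each.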

How the results depend on the processing

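The fall of all 7 Ccnd2 probe sets in line 3447 and the rise of Ccnd3 1415907_at in all tumour groups kept their direction and call in every alternative run. The next tally covers results on single genes, the counts of other pathway genes and the SP against non-SP shifts of the balance. In it 3296 alternative values stayed the same, 162 lost the call, 31 gained it and 87 others moved. The same means direction and call kept for a gene, and a value near the main one for a count or shift. No called value reversed. For member probe sets called in the 3447 SP (13), 1 probe set per gene gave 5 and the mean of a gene's probe sets gave 6, with 9 to 14 when 1 array was left out. In the 3447 non-SP (11) these gave 4 and 5, and 8 to 13. In the 4346 SP (5) median scaling, 1 probe set per gene and the compared groups alone each gave 2, no trend gave 3, leaving out array 3 of both SP groups gave 3, and leaving out 1 array gave 1 to 8. Between the lines (7) 1 probe set per gene and the mean of probe sets each gave 1, the compared groups alone 3, both array 3 left out 0, and 1 array left out 4 to 8. With the replicate block, 1 member was called between SP and non-SP cells of line 3447, Ccnd2 1416124_at (1.88, adjusted p = 0.0378), where the numbers do not pair the arrays. The block lowered the adjusted p of other members there too, as for Ccnd3 1415907_at (0.215, against 0.675 in the main fit). The share of all probe sets called under the block is not given here, so whether the Ccnd2 call stands out cannot be told. The block called no member in neurospheres, where the numbers do pair the arrays. Against neurospheres the block gave 12, 11 and 6 calls in the 3447 SP, 3447 non-SP and 4346 SP, and between the lines 7, and it ended the calls of Ccnd1 1417420_at in the 3447 SP (adjusted p = 0.0529) and Cdkn1b 1434045_at in the 3447 non-SP (0.0534).

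The shift of the Ccnd1 to Ccnd2 balance in the 3447 non-SP, 8.01, was 9.31 with a constant of 1, 6.78 with 64, 6.0 with the mean of probe sets and 7.34 to 8.58 with 1 array left out. Other shifts ran from 4.50 to 5.71 (3447 SP), 0.17 to 1.73 (4346 SP) and 3.36 to 5.12 (between lines) with 1 array left out.

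Median scaling moved the median of all probe sets to -0.19, 0.11, 0.14, -0.33 and -0.33 in the 3447 SP, 4346 SP, 3447 non-SP, between-line and 3447 SP against non-SP comparisons, and the share of calls that were higher from 51.4% to 70.9% in the 4346 SP, from 53.8% to 65.0% in the 3447 non-SP and from 36.1% to 7.09% between the lines (49.5% without normalization). The causes of these changes were not tested. Of 44 other pathway genes 7 were called in the 4346 SP and 3 with median scaling; 5 were called in the 3447 non-SP, and 9 with array weights. Signals near or below the array median, as for Cdk6 and Cdkn2b in line 3447 and Ccnd2 in its non-SP cells, limit the size of their differences.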
